A study of Mus musculus with 6 samples.

Results

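The 2′-5′-oligoadenylate synthetases (OAS) are a family of enzymes and enzyme-like proteins that bind double-stranded RNA. The genes examined are the 8 members listed by symbol as *Oas1a*, *Oas1b*, *Oas1c*, *Oas1g*, *Oas2*, *Oas3*, *Oasl1* and *Oasl2*, of 36137 genes in the files. All 8 were found, and all 8 passed the filter on low counts.

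The libraries came from bone marrow-derived macrophages (BMDMs), which are macrophages grown from marrow in culture. WT BMDMs came from LysM-Cre+/- Drp1+/+ mice and *Drp1* KO BMDMs from LysM-Cre+/- Drp1 fl/fl mice, so both genotypes carried 1 Cre allele and differed in the floxed allele of *Drp1*, the gene of a mitochondrial fission protein, whose official symbol is *Dnm1l*. LysM-Cre is active in myeloid cells, including macrophages and neutrophils. Mice were 8 to 12 weeks old and of both sexes, and the marrow of 2 mice per genotype was pooled. The labels call the 3 libraries of a group biological replicates. Whether each came from its own pool was not stated, so p-values measure the spread between the 3 libraries of a group, which may be technical in part. After 7 days of differentiation, all cultures received hypoxia with serum starvation (HSS), a culture model of ischemia, for 8 h at 2.1% oxygen as the labels give it. No culture without HSS was analysed here, so the comparison is between genotypes under HSS.

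An OAS enzyme that has bound double-stranded RNA joins ATP into short chains called 2-5A. These chains act as a signal for the decay of RNA in the cell. The OAS genes are textbook interferon-stimulated genes. Interferon signaling activates a complex of transcription factors that includes STAT2 and IRF9 and binds DNA at the interferon-stimulated response element (ISRE).

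All 8 members lie on chromosome 5 of GRCm39, in 2 groups. *Oasl2* (115034997 to 115050295) and *Oasl1* (115061294 to 115075974) are neighbors on the plus strand. *Oas2* (120868398 to 120887933), *Oas3* (120891163 to 120915729), *Oas1c* (120938259 to 120950579), *Oas1g* (121014205 to 121025676) and *Oas1a* (121031070 to 121046449) lie on the minus strand of the other group. *Oas1b* (120950700 to 120962228) lies among them on the plus strand.

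Promoters were searched for the core of the ISRE, spelled GAAANNGAAA, on both strands from 250 bases before to 30 bases after the annotated start of each gene's canonical transcript. Of 8 members, 6 held at least 1 match, and 3.64% of all 21757 promoters of the same length held it. The stretches around the matches are printed because they show which members share the element, written 5′ to 3′ in the direction of the gene from the GRCm39 genome, with the matched bases in capitals. A pair of overlapping matches makes up the capitals of *Oas1a*, *Oas1b* and *Oas1g*. In *Oas2* the core lies on the other strand and so appears as its reverse complement.
*Oas1a* promoter, minus strand, chr5:121045588-121045628: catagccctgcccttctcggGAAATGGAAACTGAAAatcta
*Oas1g* promoter, minus strand, chr5:121025674-121025714: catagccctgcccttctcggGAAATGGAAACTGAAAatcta
*Oas1b* promoter, plus strand, chr5:120950658-120950698: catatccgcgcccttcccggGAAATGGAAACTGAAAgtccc
*Oas2* promoter, minus strand, chr5:120887975-120888009: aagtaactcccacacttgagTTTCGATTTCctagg
*Oas3* promoter, minus strand, chr5:120915785-120915819: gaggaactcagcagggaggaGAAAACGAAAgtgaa

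The *Oas1a* and *Oas1g* stretches were identical over all 41 bases, and the *Oas1b* stretch differed from them at 7 of 41. *Oas1b* and *Oas1c* are divergent genes whose annotated starts lie 124 bases apart, and the match in the *Oas1c* promoter is the same stretch of DNA as that of *Oas1b*, read from the other strand. Counting the first transcribed base as 0, the matched bases lay from -49 to -34 in *Oas1g* and from 2 to 17 in *Oas1a*, after the annotated start of its transcript. These positions depend on the start taken. The canonical transcript of *Oas1a* starts at 121045610, though the gene is annotated to begin at 121046449. For *Oas1g* the same places are 121025645 and 121025676. The *Oas1a* transcript has 1911 bases in the annotation used here and 1885 in the deposited files, and where they differ was not examined. No match was found in the windows of *Oasl1* or *Oasl2*, which says only that these letters are not in these windows. Another interferon element, the gamma-activated site (TTCNNNGAA, both strands), occurred in 8.40% of all promoters and among the members in that of *Oas1a* alone. A match is a description of the sequence and does not show that a factor was bound.

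**Figure D1:**
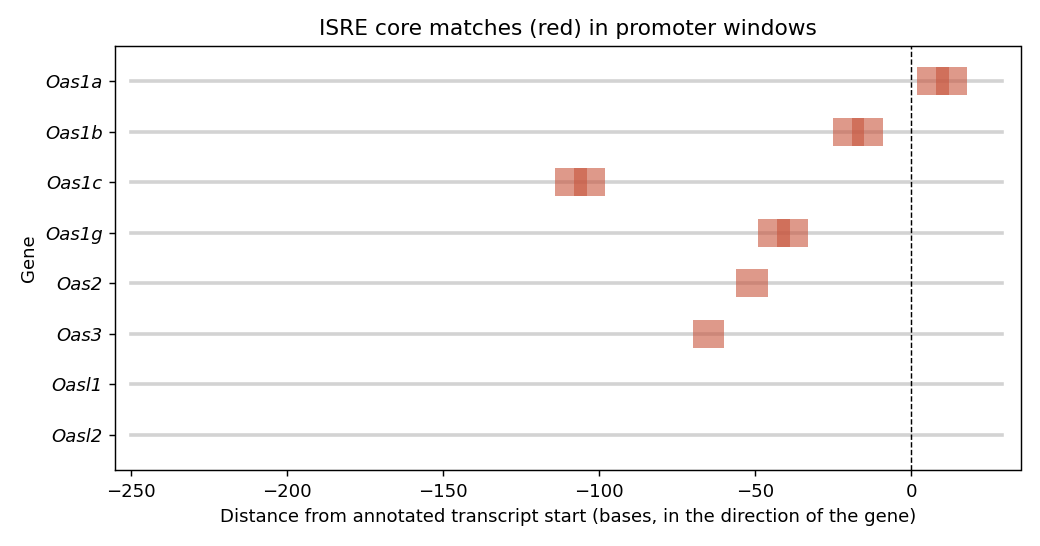
Position of ISRE core matches (red; overlapping matches darker) in the promoter window of each member, with the distance in bases from the annotated start (dashed line) on the x axis and 1 gene per row. *Oas1c* and *Oas1b* share 1 stretch of DNA, and the windows of *Oasl1* and *Oasl2* are empty.

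Depth was 24269850 to 28650715 estimated reads in WT libraries and 23389488 to 32231206 in *Drp1* KO libraries, and 3 counts, the floor, correspond to 0.0917 to 0.136 CPM (counts scaled to library size), for counting error only. *Dnm1l* RNA was below every WT library in every *Drp1* KO library, at 72.6 ± 2.61 against 61.9 ± 3.91 CPM (SD, n = 3 each), and did not pass the test (log2 fold change -0.23, adjusted p = 0.248, edgeR). The counts do not show which of its exons the reads came from. The paper reports deletion of DRP1 protein in BMDMs of the *Drp1* KO mice by immunoblot, a measure of protein and not of these libraries. Summed over the list, 10 macrophage markers had 14927 to 16482 CPM in the WT group and 13181 to 15584 CPM in the *Drp1* KO group. *Lyz2*, the locus that carries LysM-Cre, made up 58.4% to 63.9% of that sum, and the other 9 genes had 5686 to 6594 against 5008 to 6056 CPM. *Fcgr1* was called higher and *Csf1r*, *Mertk* and *Mrc1* lower among them. Neutrophil markers (10 genes, *Ly6g* at 0 in every library) had 89.5 to 97.3 CPM in the WT group and 118 to 220 in the *Drp1* KO group, with 0 of 7 tested called. *Mmp8* made up 58.9% to 92.9% of that sum with overlapping groups, and the other genes had 6.86 to 21.1 against 20.6 to 48.4 CPM, which overlapped. *Ngp* (log2 fold change 1.32, adjusted p = 0.107, edgeR) and *Ltf* (1.03, adjusted p = 0.260) were above every WT library in every *Drp1* KO library. Plasmacytoid dendritic cell markers (4 genes, *Ly6d* and *Klk1* at 0) had at most 3.88 CPM in the WT group and 4.36 in the *Drp1* KO group. Dendritic cell markers (6 genes) had 43.8 to 63.1 against 31.1 to 50.7 CPM. *Itgax* made up 88.5% to 95.2% of that sum, and the other genes had 3.28 to 4.94 against 2.00 to 3.57 CPM, which overlapped. *Flt3* (adjusted p = 0.456, edgeR) and *Zbtb46* (0.228) were below every WT library in every *Drp1* KO library, and the other genes tested overlapped. Lymphocyte markers (5 genes, *Ncr1* at 0) had 2.03 to 4.05 against 1.498 to 3.13 CPM, and fibroblast markers (6 genes) 1.84 to 3.06 against 1.89 to 2.00 CPM. The part of other cells in the differences given here was not tested.

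RNA of the OAS family was higher in *Drp1* KO than in WT BMDMs under HSS. Of the 8 members, 7 rose at an adjusted p under 0.05 (edgeR's quasi-likelihood test with Benjamini-Hochberg adjustment over 18506 genes), against 2.29% of all genes tested. The remaining member, *Oas1b*, had a higher mean and did not pass. For all 8 members every *Drp1* KO library lay above every WT library, which was so for 11.7% of all genes tested. The median log2 fold change of the members, *Drp1* KO relative to WT, was 1.91, and that of all genes tested was 0.0046. In bulk RNA, a difference in the number of cells with a transcript and a difference in its level per cell cannot be told apart.

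**Figure D2:**
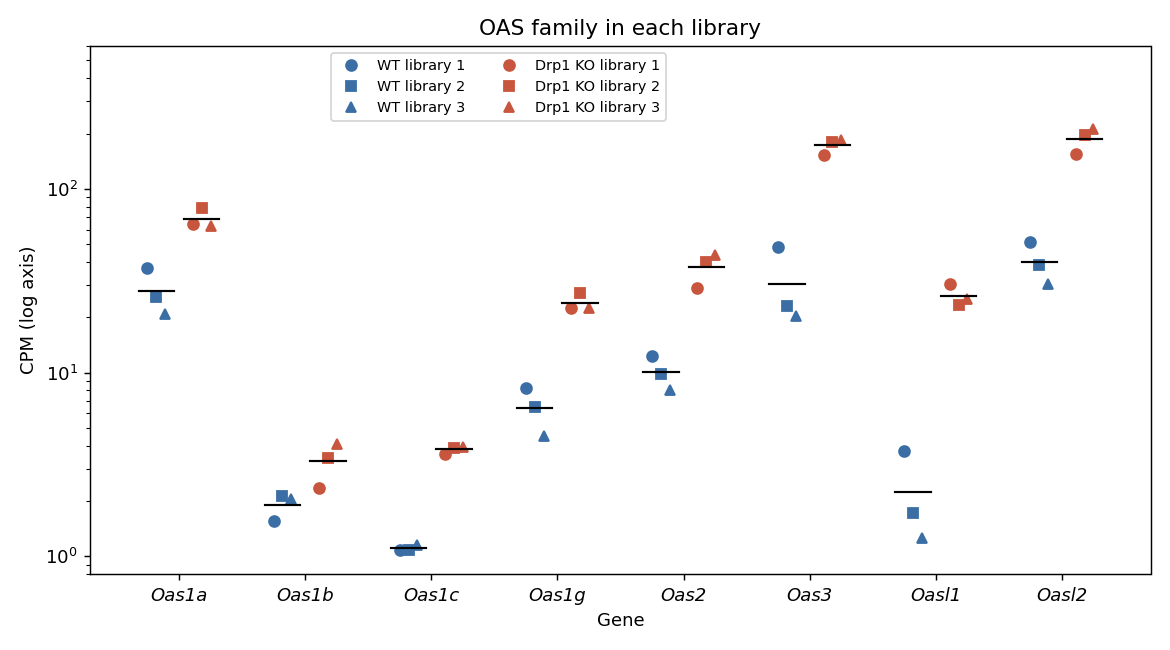
Level of each OAS gene (x axis) in CPM on a log axis, with 1 marker per library, WT in blue, *Drp1* KO in red and the group mean as a black bar. The groups are apart for all 8 OAS genes, most widely for *Oasl1*.

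The *Oas1* genes are a cluster of near-copies in the mouse. *Oas1a* and *Oas1g* encode active enzymes. *Oas1a* stood at 37.2, 25.7 and 20.8 CPM in WT libraries 1 to 3 and at 64.6, 78.9 and 62.5 CPM in *Drp1* KO libraries 1 to 3. The lowest *Drp1* KO library was 1.68-fold above the highest WT library, which was library 1. The means were 27.9 ± 8.41 and 68.7 ± 8.93 CPM (SD, n = 3 each), with a log2 fold change of 1.30 (SE, the standard error, 0.191, adjusted p = 0.00556, edgeR). This call depended on a WT library: without WT library 2 the value was 1.23 (adjusted p = 0.0539, edgeR), and over all 15 alternatives the adjusted p was at most that.

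*Oas1g* had 8.28, 6.52 and 4.53 CPM in the WT libraries and 22.4, 27.1 and 22.6 CPM in the *Drp1* KO libraries. The groups did not overlap, and WT library 1 was again the nearest to the *Drp1* KO libraries. The log2 fold change was 1.91 (SE 0.199, adjusted p = 0.000739, edgeR). *Oas1a* and *Oas1g* cannot be fully separated by short reads. Of the 1881 different 31-base words in the GENCODE transcripts of *Oas1a*, the word length taken for this check, 1275 also occur in *Oas1g*, and 32.1% were found in no other gene. For *Oas1g* the share found in no other gene was 45.0%. The split of reads between the pair is therefore an estimate made by the quantifier.

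By CPM, *Oas1c* had the tightest replicates of the members; by TPM, its *Drp1* KO libraries spread more, from 2.43 to 3.21. Its level was 1.08, 1.09 and 1.16 CPM in the WT libraries and 3.63, 3.91 and 3.96 CPM in the *Drp1* KO libraries. The log2 fold change was 1.79 (SE 0.214, adjusted p = 0.00163, edgeR), and it ran from 1.76 to 1.81 with each library left out in turn. Of its 31-base words, 79.3% were found in no other gene.

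*Oas1b* is known as the flavivirus resistance gene of the mouse, and many laboratory strains carry a form that is cut short. Its level was 1.55, 2.14 and 2.04 CPM in the WT libraries and 2.36, 3.45 and 4.08 CPM in the *Drp1* KO libraries. The highest WT library and the lowest *Drp1* KO library lay close together, 1.105-fold apart. The log2 fold change was 0.79 (SE 0.260, adjusted p = 0.148, edgeR), and with libraries of the same number paired it was 0.78 (SE 0.188, adjusted p = 0.0223), in a fit that called 12.0% of all genes. Its main transcript, 88.6% to 100% of its counts, is annotated as a loss-of-function form of a coding transcript in the reference genome.

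Of the 4 *Oas1* copies outside the list, *Oas1d* had 4 counts over all 6 libraries, *Oas1e* 1 and *Oas1f* 0. *Oas1h*, named after its values were seen, had 1, 0 and 4 counts in the WT libraries and 1, 13 and 9 in the *Drp1* KO libraries, and did not pass (adjusted p = 0.379, edgeR). With all 8 *Oas1* copies added into 1 feature, which removes the split among near-copies, the level was 37.4 ± 9.87 CPM for WT and 100.1 ± 11.9 CPM for *Drp1* KO libraries (SD, n = 3 each). The log2 fold change of the sum was 1.42 (SE 0.174, adjusted p = 0.00183, edgeR).

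The larger enzymes carry repeated OAS units, a pair in OAS2 and more in OAS3, which binds long double-stranded RNA. *Oas2* had 12.3, 9.86 and 8.04 CPM in the WT libraries and 28.9, 39.9 and 43.9 CPM in the *Drp1* KO libraries. The lowest *Drp1* KO library was 2.35-fold above the highest WT library. The means were 10.1 ± 2.13 and 37.6 ± 7.75 CPM (SD, n = 3 each), with a log2 fold change of 1.91 (SE 0.190, adjusted p = 0.000624, edgeR). No 31-base word of *Oas2* occurred in another gene.

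*Oas3* had 48.3, 22.9 and 20.4 CPM in the WT libraries and 153, 180 and 185 CPM in the *Drp1* KO libraries. WT library 1 was 2.37-fold above WT library 3, and the lowest *Drp1* KO library was still 3.17-fold above WT library 1. The log2 fold change was 2.50 (SE 0.280, adjusted p = 0.00111, edgeR), and without WT library 1 it was 2.99.

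The OAS-like genes encode proteins with ubiquitin-like domains at their end. OASL1 is known to hold back translation of *Irf7* mRNA, and OASL2 of the mouse makes 2-5A. *Oasl1* had 3.75, 1.72 and 1.26 CPM in the WT libraries and 30.2, 23.3 and 25.2 CPM in the *Drp1* KO libraries. Its groups were the farthest apart of the 8 members, with the lowest *Drp1* KO library 6.21-fold above the highest WT library. The means were 2.25 ± 1.32 and 26.2 ± 3.56 CPM (SD, n = 3 each), with a log2 fold change of 3.57 (SE 0.314, adjusted p = 0.000389, edgeR). Without WT library 1 it was 4.13.

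*Oasl2* had 51.4, 38.5 and 30.5 CPM in the WT libraries and 155, 197 and 211 CPM in the *Drp1* KO libraries. The groups did not overlap, and the log2 fold change was 2.23 (SE 0.187, adjusted p = 0.000322, edgeR). Reads of both OAS-like genes were nearly free of sharing: 99.9% of the 31-base words of *Oasl1* and 98.85% of those of *Oasl2* were found in no other gene.

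The libraries of a group differed in a like way for most members. WT library 1 was the highest WT library for 6 of 8 members and *Drp1* KO library 1 the lowest *Drp1* KO library for 6 of 8. The ratio of *Drp1* KO to WT was smaller between libraries 1 than between libraries 2 or 3 for all 8 members. For *Oas3*, the *Drp1* KO level was 3.17-fold the WT level between libraries 1, 7.83-fold between libraries 2 and 9.06-fold between libraries 3. For *Oasl1* the same ratios were 8.05, 13.5 and 19.97. The means of these genes over 3 libraries thus cover unequal ratios.

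The genes of the 2-5A pathway examined beside the synthetases did not pass, so 0 of 3 were called, against 3.36% of all genes in either direction. *Pde12*, which encodes an enzyme that breaks down 2-5A, had a log2 fold change of 0.18 (SE 0.107, adjusted p = 0.462, edgeR). *Akap7*, whose protein has a domain that can cleave 2-5A, had -0.05 (adjusted p = 0.910, edgeR). *Abce1*, which encodes a ribosome recycling factor, had 0.24 (adjusted p = 0.292, edgeR). At that share, a list of 3 genes is too short for a count of 0 to set it apart from all genes. For *Pde12*, every *Drp1* KO library (23.5 to 25.5 CPM) lay above every WT library (19.9 to 22.9 CPM), as for 11.7% of all genes tested. The difference between these genes and the OAS genes was not tested.

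**Figure D3:**
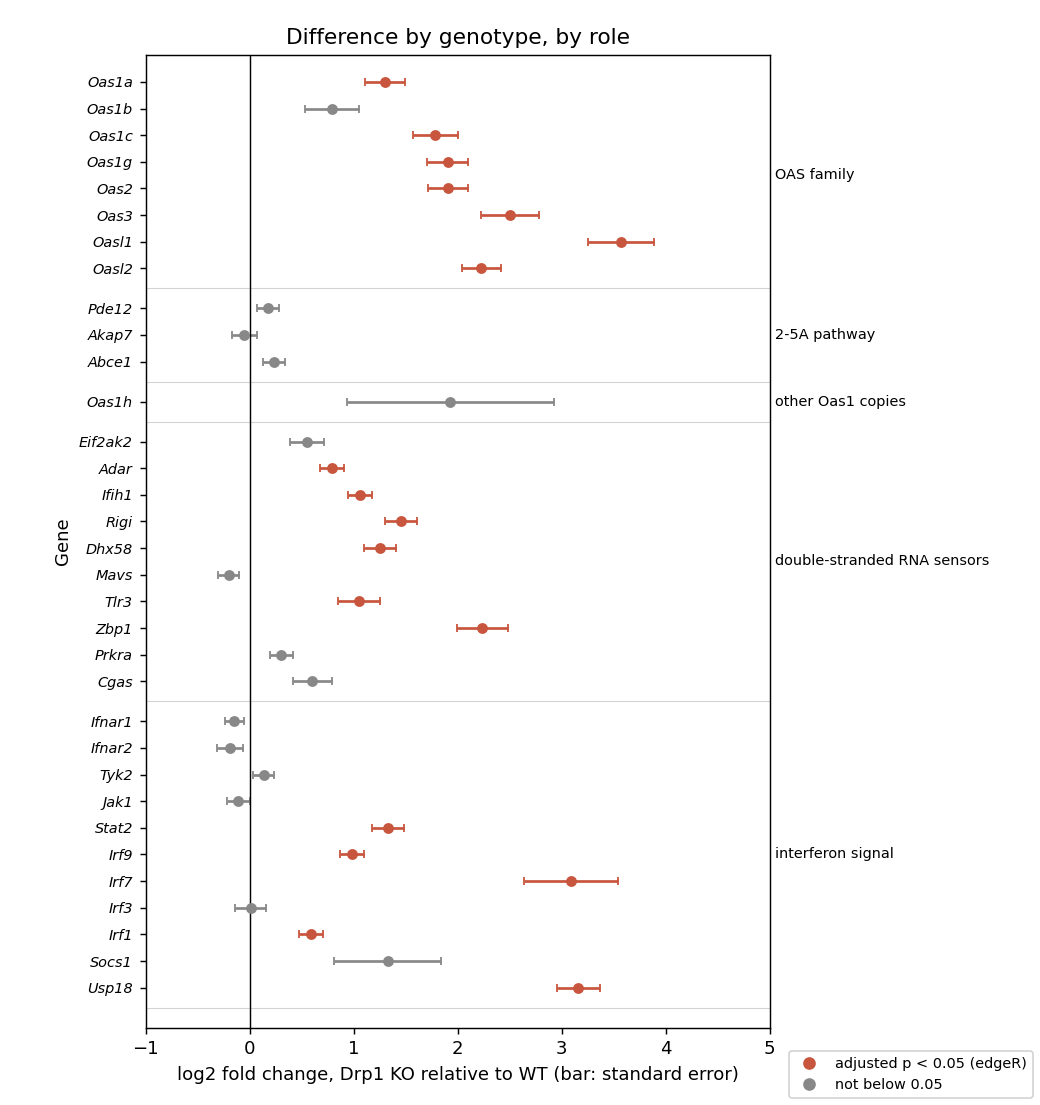
Log2 fold change of *Drp1* KO relative to WT (x axis; bars, standard error; n = 3 libraries each) for the OAS genes and the other pathway genes tested (y axis), grouped by role, with red points where the adjusted p was under 0.05. All 8 OAS genes lie to the right of 0, from 0.79 to 3.57, and the 3 genes of the 2-5A pathway lie between -0.05 and 0.24.

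Other proteins that sense, bind or edit double-stranded or otherwise foreign nucleic acid, or work with such sensors, were examined as a list of 10 genes. Of these, 6 rose, against 2.29% of all genes tested. *Rigi* and *Ifih1*, the cytosolic sensors RIG-I and MDA5, had log2 fold changes of 1.46 and 1.06. *Dhx58*, their relative LGP2, had 1.25, and *Zbp1*, a sensor of Z-form nucleic acid, 2.24. *Tlr3*, the endosomal sensor, had 1.05 and *Adar*, which edits double-stranded RNA, 0.79. *Tlr3* lost its call in 5 of 15 alternatives and *Adar* in 1, without WT library 2 (adjusted p = 0.0552, edgeR).

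The 4 that did not pass included *Mavs*, the adaptor of RIG-I and MDA5 (-0.20, adjusted p = 0.371, edgeR), and *Cgas*, an enzyme of the same fold as OAS that senses DNA (0.60, adjusted p = 0.126, edgeR). The others, named after their values were seen, were *Eif2ak2*, the kinase PKR (0.55, adjusted p = 0.104, edgeR), and *Prkra*, its activator (0.30, adjusted p = 0.189, edgeR). With libraries of the same number paired, *Cgas* (adjusted p = 0.0173), *Eif2ak2* (0.00569) and *Prkra* (0.0463) passed, in a fit that called 12.0% of all genes in either direction. Over all 15 alternatives, *Eif2ak2* passed in 4, *Cgas* in 2 and *Prkra* in 1.

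Of 12 genes of interferon signaling, 11 could be tested and 5 rose, against the same 2.29% of all genes. *Stat2* and *Irf9*, which encode parts of the complex that binds the ISRE, had 1.33 and 0.98 on the log2 scale. *Irf7*, a factor that drives interferon genes, had 3.09, *Usp18*, which damps the receptor, 3.16, and *Irf1* 0.59. Without WT library 1 the value of *Irf7* was 4.0025. *Irf1* lost its call in 5 of 15 alternatives. The receptor genes did not pass, with -0.14 for *Ifnar1* (adjusted p = 0.511, edgeR) and -0.19 for *Ifnar2* (adjusted p = 0.533, edgeR). *Ifnb1*, the gene of interferon beta, had 0 counts in 5 libraries and 5 in *Drp1* KO library 3, and was not tested.

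*Irf7* stood at 74.6, 21.2 and 19.3 CPM in the WT libraries and at 349, 355 and 271 CPM in the *Drp1* KO libraries. As for 6 of the 8 members, WT library 1 was the highest WT library.

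Levels were compared between genes as TPM, a transcript measure that accounts for length as well as depth. In WT BMDMs *Oasl2* was the highest member at a mean of 35.6 TPM, followed by *Oas1a* at 21.9, *Oas3* at 9.08 and *Oas1g* at 6.52. *Oas2* (3.63), *Oas1b* (1.63), *Oasl1* (1.46) and *Oas1c* (0.753) were the lower members. Within a library, each of the first 5 genes in this order was above the next in all 3 WT libraries, although the ranges over libraries overlapped between *Oasl2* and *Oas1a* and between *Oas3* and *Oas1g*. *Oas1b* was above *Oasl1*, and *Oasl1* above *Oas1c*, in 2 of 3 libraries, so the order of these neighbors was not fixed.

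In *Drp1* KO BMDMs the order was the same except for *Oasl1*, which stood at 16.5 TPM, above *Oas2* (13.1 TPM) in all 3 libraries though their ranges overlapped. *Oasl2* was at 161 TPM, *Oas1a* at 50.8 and *Oas3* at 48.4, with *Oas1a* above *Oas3* in 2 of 3 libraries. *Oas1g* was at 21.9, and *Oas1b* (3.27) and *Oas1c* (2.95) were the lowest, in that order in 2 of 3 libraries. The summed TPM of the 8 members was 80.6 ± 23.6 in WT and 318 ± 50.3 in *Drp1* KO libraries (SD, n = 3 each), 3.95-fold higher.

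The make-up of the family's RNA was compared as each gene's share of the summed TPM. *Oasl1* held 1.72% of the summed TPM in WT and 5.30% in *Drp1* KO libraries, *Oas3* 10.8% and 15.2%, and *Oasl2* 44.1% and 50.4%. For these 3 genes every *Drp1* KO library was above every WT library by TPM. With shares of CPM in place of TPM, the groups overlapped for *Oasl2*. *Oas1a* held 27.3% and 16.1% and *Oas1g* 8.16% and 6.94%, with every *Drp1* KO library below every WT library. The exact permutation p (two-sided) was 0.1 for each of these 5 shares, the smallest that 3 against 3 allows, so none could reach 0.05. The shares of *Oas1b*, *Oas1c* and *Oas2* overlapped between groups.

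**Figure D4:**
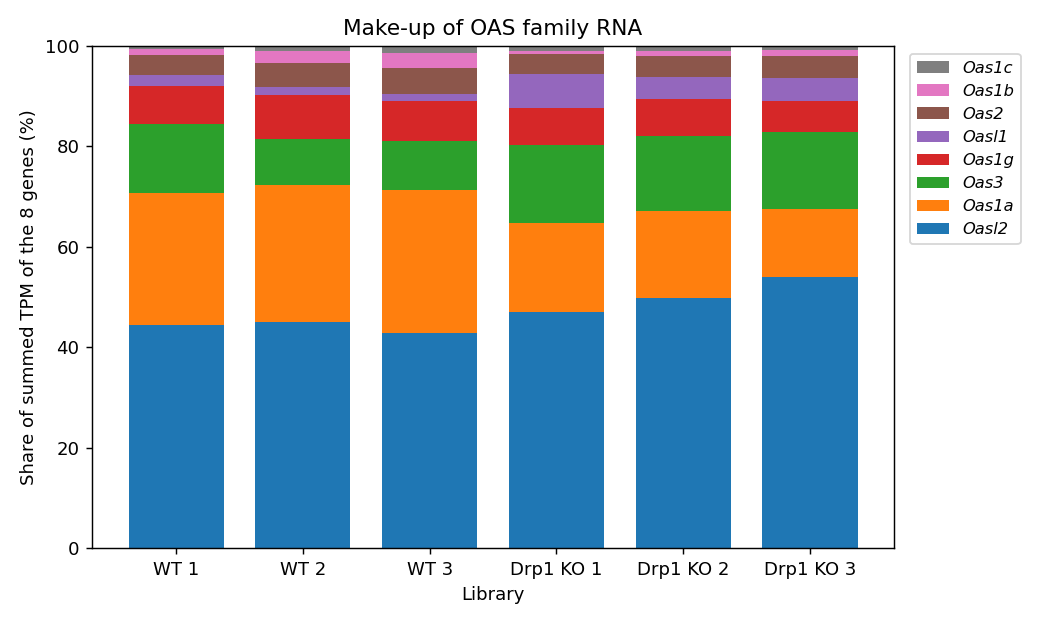
Share of the summed TPM of the 8 OAS genes (y axis, percent) held by each gene in each library (x axis). *Oasl2* is the largest part in every library, and *Oas1a* is smaller and *Oasl1* larger in the 3 *Drp1* KO libraries than in the 3 WT libraries.

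The 8 members have 32 annotated transcripts in the files. Of these, 27 had at least 10 counts in total, and 20 of the 27 were above every WT library in every *Drp1* KO library. Of all transcripts in the files with at least 10 counts, 6.74% were so. Transcripts of a gene overlap and are not independent of each other.

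Transcripts annotated as targets of nonsense-mediated decay, a route that removes mRNAs with an early stop codon, took much of the counts of a pair of members. In *Oasl2*, a single such transcript held 54.8% to 63.4% of the gene's counts in the WT group and 60.1% to 62.2% in the *Drp1* KO group, which overlapped. In *Oas1g*, it held 75.3% to 93.1% in the WT group and 68.6% to 74.6% in the *Drp1* KO group. The coding transcript of *Oas1g* held 5.27% to 18.9% in the WT group and 22.4% to 28.5% in the *Drp1* KO group (two-sided exact permutation p = 0.1, the lowest that 3 against 3 can give). The quantifier splits reads among overlapping transcripts and between *Oas1g* and *Oas1a*, so these shares are estimates whose error is not in the files. Little sequence sets these transcripts apart. Of the 31-base words of the decay-annotated transcript, 1.41% in *Oasl2* and 7.3% in *Oas1g* were found in no other transcript. For the coding transcript of *Oas1g* it was 14.3%. Counted over transcripts annotated as coding alone, *Oas1g* had a log2 fold change of 3.17.

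**Figure D5:**
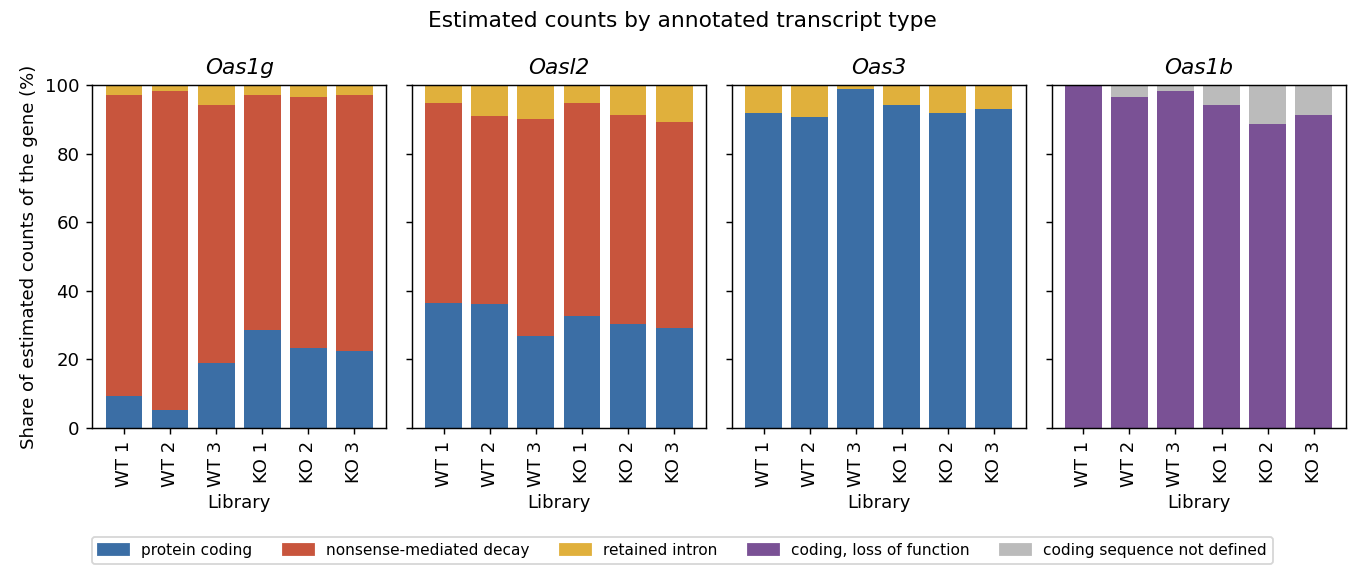
Share of a gene's estimated counts (y axis, percent) by annotated transcript type in each library (x axis; WT and *Drp1* KO libraries 1 to 3), for *Oas1g*, *Oasl2*, *Oas3* and *Oas1b*. The coding share of *Oas1g* is 22.4% to 28.5% in the *Drp1* KO libraries and at most 18.9% in the WT libraries.

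Genes with the most similar pattern were taken as those whose log2 CPM correlated best with the mean standardized profile of the members over the 6 libraries, among 12240 genes. They were *Phf11d*, *Phf11b*, *Sp100*, *Rtp4* and *Cnbp*, with r from 0.998 to 0.999. The 6 points are 2 groups of 3, so a gene that differs between the genotypes has a high r. *Phf11d* stood at 33.9, 26.3 and 20.5 CPM in the WT libraries and at 106, 151 and 157 CPM in the *Drp1* KO libraries. *Cnbp* (nucleic acid-binding zinc finger protein) had a smaller difference, with a log2 fold change of 0.64 against 2.36 for *Phf11d*. Among the members, the pairwise correlations over the same 6 libraries ran from 0.67 to 0.998.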

How the data were processed

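Poly(A) RNA of 3 WT and 3 *Drp1* KO BMDM libraries had been sequenced with paired-end reads. The authors quantified transcripts with kallisto 0.46.1 on Ensembl cDNA of GRCm39 and deposited estimated counts and TPM for 116873 transcripts per library. The deposited estimated counts were not scaled between libraries, and the deposited TPM values are scaled for length and depth. The Ensembl release, strand setting and bias correction were not given in the sources used here. Transcripts were matched by identifier to GENCODE annotation (99.4%), and unmatched ones (0.542% to 0.575% of counts) were left out.

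Estimated counts were summed per gene and rounded. Genes with at least 10 counts in total were tested with edgeR 4.0.16 in R 4.3.3 (TMM, quasi-likelihood, no covariate, Benjamini-Hochberg), after a test on simulated data. CPM are counts scaled to normalized library size. Standard errors are the fold change over the square root of F. Alternatives used DESeq2 1.42.0, limma 3.58.1 (voom), other scalings and filters, and leaving out each library. Same-numbered libraries correlated in their deviations from the group mean (0.510, 0.204 and 0.298), each over 0.1, so a paired fit was made, from the data and not the labels. The 6 pairs with different numbers had -0.443 to 0.326, and WT 2 with *Drp1* KO 3 (0.326) was above the same-number values of both. Members and lists were chosen with earlier results of these data known. Named were all members, the 2-5A genes, other listed genes that passed, *Ifnb1*, *Ifnar1*, *Ifnar2*, *Mavs* and *Cgas*, and the 5 genes most alike in pattern. Outside this rule, *Oas1h*, *Eif2ak2*, *Prkra* and the single marker genes given by name were named after their values were seen. Some of the listed pathway and marker genes are not reported here.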

Additional observations from a re-analysis of the deposited data

How the results depend on the processing

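Of the 8 members, 7 were called under every alternative run except without WT library 2, where 6 were (*Oas1a* lost its call, with a log2 fold change of 1.23), and with the replicate block that pairs libraries of the same number, where 8 were (*Oas1b* passed at 0.78). With a library left out, *Oas1a* ran from 1.11 to 1.56. The blocked fit changed no call of another member or of a gene of the 2-5A pathway. The number of genes called over the whole table was 621, and it was 1155 with DESeq2, 1065 with at least 1 count in total, 2212 with the replicate block and between 181 and 904 with a library left out (181 and 217 when WT library 2 or 3 was the one dropped, and 268 and 348 for *Drp1* KO library 2 or 3). *Akap7* ran from -0.14 to 0.065 and changed sign without WT library 1 (0.065). The log2 ratio of the *Oasl2* share, 0.19 by TPM, was 0.082 by CPM, which does not account for length. By CPM, the *Oasl2* shares of the groups overlapped. *Oas1b* had no value over coding transcripts alone, since none of its transcripts in the files is annotated so. The causes of these changes were not tested. *Oas1b* and *Oas1c* had the fewest counts of the members, 451 and 425 over all 6 libraries, and the split of counts between *Oas1a* and *Oas1g* rests on sequence that they share in part.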
